A study of Drosophila melanogaster with 27 samples.

Results

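Puparium formation in *Drosophila melanogaster* was examined by setting newly formed prepupae (0 h) against the third instar larvae of 18 h before pupariation (-18 h). The members were the samples titled 0 hour prepupae, 3 arrays, and the third instar larvae titled -18 h, 3 arrays, which make 6 of the 27 arrays of the series. All animals were of the *w1118* strain, a white-eyed laboratory stock that carries no transgene, and each sample was total RNA of 10 whole animals, so a transcript's level sums over all tissues. The remaining arrays cover -4 h larvae and later prepupae and pupae, with 3 arrays per stage. According to the submitters' growth notes, the -18 h larvae had been raised on food with 0.05% bromophenol blue, a gut dye, and were picked while already wandering and with guts still dark blue, so they are called -18 h larvae here and not feeding larvae. The experiments were described as performed independently in triplicate, and the p-values measure the spread between such samples.

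Pupariation is the step at which the mobile larva shortens, glues itself to a surface and turns its cuticle into the hard, tanned puparium. A high pulse of 20-hydroxyecdysone (20E), the molting hormone of insects, precedes it. The hormone binds a pair of nuclear receptors, EcR and Ultraspiracle, which switch on early regulatory genes. Their products in turn repress some larval genes and induce late genes tissue by tissue. At this stage the salivary glands expel their glue, the cuticle hardens and tans, feeding has ended, the larval midgut is about to be replaced, and the imaginal discs begin to evert.

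The 6 arrays had medians of 250.7 to 260.4 intensity units, and 8.81 to 10.8% of their probe sets lay at or below the floor of 60.26 units that was set before taking log2. The 0 h arrays resembled each other closely, with correlations across probe sets of 0.988 to 0.993. The median SD on the log2 scale was 0.0963 at 0 h and 0.29 at -18 h. Among the -18 h arrays replicate 2 stood apart. It correlated at 0.864 to 0.905 with replicates 1 and 3, which correlated at 0.986 with each other. It was also farthest from the 0 h arrays, at 0.723 to 0.76, whereas replicate 1 had 0.888 to 0.906 and replicate 3 had 0.853 to 0.879. Calls that are lost without it, and the larger shifts of counts and medians, are given beside the results. Intensities are printed as deposited, and folds are ratios of geometric means after the floor was set. Where a printed value of the lower stage lies under the floor, the fold is a lower bound.

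Of 13966 probe sets, 12716 were above the floor in at least 3 of the 6 arrays and were tested with limma. A gene below the floor in all 3 arrays of 1 stage passed this filter only through the other stage. Its floored values are all equal, so its p-value holds no spread of that stage. This applies to *usp*, *Kr-h1*, *imd*, *unc-13* and *Ugt35A1* below, which are still counted in their lists. Changed here means that the p-value, adjusted by the method of Benjamini and Hochberg, was under 0.1 and the difference 1.5-fold or more. By this rule 3686 probe sets changed, which is 29% of those tested. Of these, 2273 (17.9%) were higher and 1413 (11.1%) were lower in 0 h prepupae. The 0 h and -18 h arrays did not overlap for 7191 probe sets, 56.6% of those tested, and for 3642 of the changed ones. At least 4-fold differences numbered 249 upward and 114 downward, and at least 16-fold differences 21 upward and 10 downward. The size of the count depended on single arrays. It was 2386, 2324 and 2839 without 0 h replicates 1, 2 and 3, and 4998, 3312 and 2914 without -18 h replicates 1, 2 and 3. Of the 3686 changed probe sets 2900 (78.7%) were also called without -18 h replicate 2. In the gene lists that follow, a count of 3 or fewer could gain or lose members when 1 array was left out, and the larger shifts are given with each list. The count of each list is to be set beside the shares over all tested probe sets, 17.9% higher, 11.1% lower and 29% changed.

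The 15 largest rises included 7 genes known here only by a number. *CG7906*, the largest, had intensities of 9225, 8471 and 9536 at 0 h, against 81.4, 129 and 99.7 at -18 h, an 89.2-fold rise (log2 SE 0.19, adjusted p = 1.2e-05). *Eig71Ea*, of the 71E late puff, had 5869.6, 4579 and 4413 at 0 h, against 52.8, 105 and 49 at -18 h (at least 67.8-fold, adjusted p = 3.7e-05). *Drsl5*, which encodes a drosomycin-like peptide, had 8683, 8326 and 8801 at 0 h, against 124, 126 and 136 at -18 h (67-fold, adjusted p = 4.5e-06). The 15 were picked among changed genes whose arrays of both stages do not overlap, so that separation was set by the choice. In these 3 genes the larval values were close to the low end of the scale. *e* (ebony), the enzyme that joins beta-alanine to dopamine, rose 53.1-fold, and *CG7924* rose 53-fold. *CG14687* (36.6-fold), *CG14664* (31.4-fold), *CG5171* (23.5-fold), *CG2444* (20.7-fold) and *CG7778* (16.2-fold) had no descriptive name in the annotation used. Completing the 15 were *Drs*, *Spn100A*, *Eig71Eg*, *ple* and *PGRP-SB2*, which are described with their groups.

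Of the 15 largest falls 9 were of genes known here only by a number. *LManVI*, an alpha-mannosidase, had 193, 181 and 239 at 0 h, against 6906, 7044 and 7318 at -18 h, a 35-fold fall (log2 SE 0.14, adjusted p = 1.1e-05). *CG17105* had 316, 613 and 393 at 0 h, against 10636, 11404 and 11755 at -18 h (26.6-fold, adjusted p = 8.3e-05). *CG14258* had 80.8, 99.4 and 95.5 at 0 h, against 3681, 1102 and 2679 at -18 h (24.2-fold, adjusted p = 0.00075). The 15 falls were also picked among genes without overlap of the arrays. In *CG14258* the larval values were widely spread, lowest in replicate 2. *CG14852* (25.9-fold), *CG5084* (21.7-fold), *CG3819* (18.6-fold), *Jig* (17.9-fold), *CG11911* (14.2-fold), *CG17571* (14.1-fold), *CG11300* (13.7-fold) and *CG8087* (12.6-fold) also fell. The others of the 15 were *Lcp9*, *mag*, *Jon66Cii* and *Mlc2*, taken up with the cuticle, the gut and muscle.

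**Figure D1:**
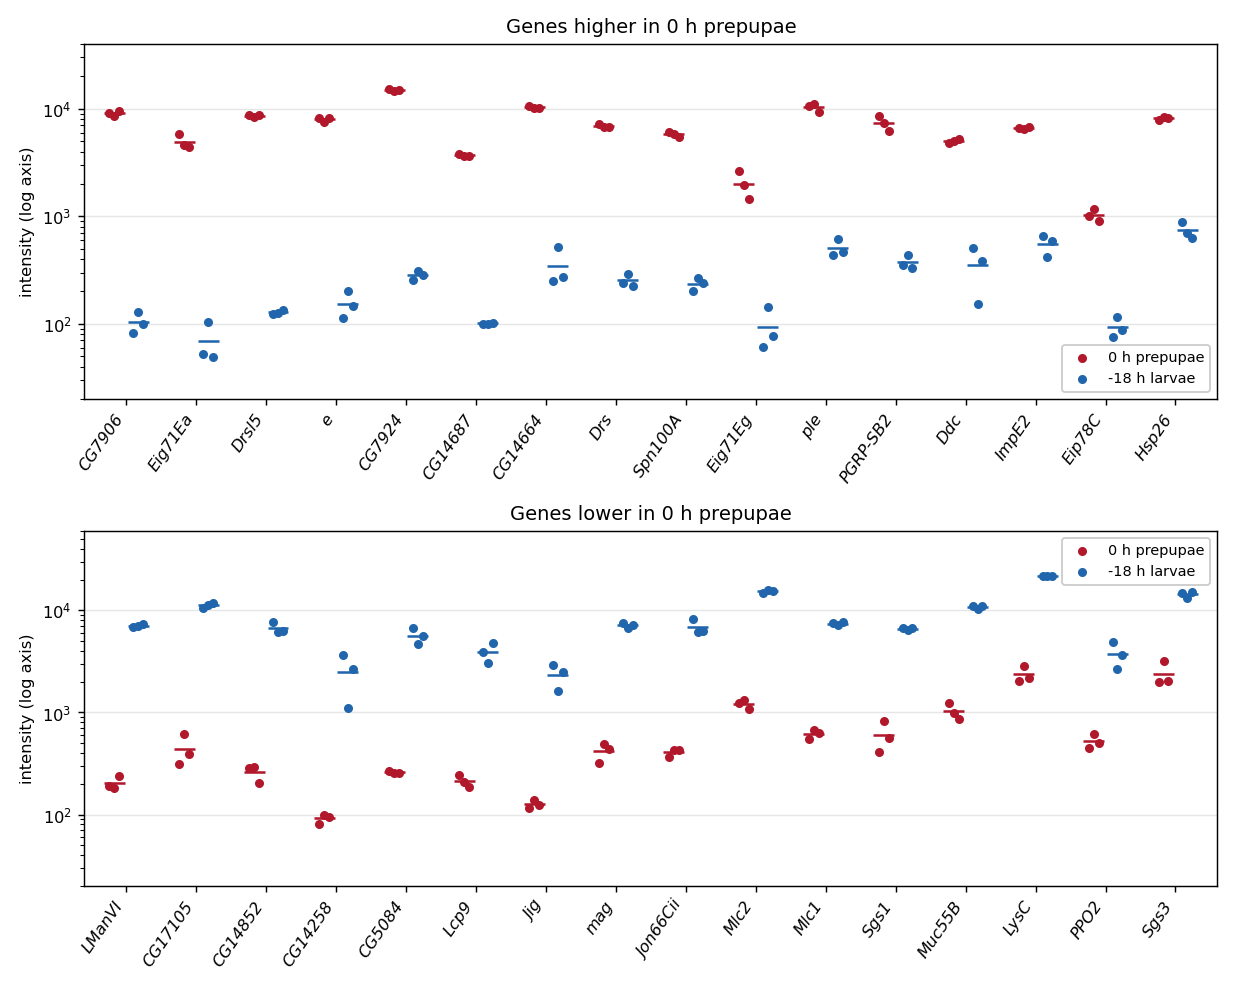
Intensity (log axis) of 16 genes higher (top) and 16 genes lower (bottom) in 0 h prepupae (red) than in -18 h larvae (blue); each point is 1 array, horizontal lines are means of 3 arrays. In no gene shown do the points of both stages overlap, and the larval points are the more scattered in genes such as *Ddc* and *CG14258*.

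To see which parts of the hormone response had started by pupariation, the receptor genes and the early regulators were read first. Of 19 tested members, 9 rose, 1 fell and 9 were not called. The median difference was 0.43 on the log2 scale, against -0.04 over all tested probe sets. It was 0.73, with 10 higher, without -18 h replicate 2, and 0.22 without -18 h replicate 1 or 3. *Eip78C*, a nuclear receptor gene of an early puff, had 999, 1158 and 904 at 0 h, against 76.1, 116 and 87.9 at -18 h, and rose 11.1-fold (adjusted p = 0.00011). *Hr3*, a nuclear receptor of the middle of the cascade, had 456, 433 and 311 at 0 h, against 51.6, 177 and 59 at -18 h (at least 4.57-fold, adjusted p = 0.013). Its larval replicates 1 and 3 lay below the floor. *br*, the Broad zinc-finger gene, had 961, 845 and 633 at 0 h, against 325, 113 and 316 at -18 h (3.54-fold, adjusted p = 0.022). The prepupal arrays were above all larval arrays in these 3 genes, and -18 h replicate 2 was the highest larval array for *Hr3* and the lowest for *br*. The nuclear receptor genes *Hr39* (3.27-fold), *Hr78* (3.06-fold) and *Hr4* (2.04-fold) and *MsrA* (2.42-fold), a methionine sulfoxide reductase gene of the 71CD puff, rose as well.

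Among the receptor genes themselves, *EcR* was lower in prepupae, with 522, 503 and 589 at 0 h, against 797, 953 and 759 at -18 h (1.55-fold, adjusted p = 0.019). Without -18 h replicate 2 the difference was 1.45-fold and *EcR* was not called, which left 0 members of the list lower. Without -18 h replicate 1, 2 members were lower. *usp*, the partner of EcR, had 134, 93.8 and 79.1 at 0 h, while all 3 larval arrays lay below the floor, which makes the rise at least 1.65-fold. It passed the filter only through the 0 h arrays, and its adjusted p of 0.038 (limma) takes in no larval spread. *usp* was no longer called without 0 h replicate 1, 0 h replicate 2 or -18 h replicate 3. *Kr-h1*, a zinc-finger gene that also mediates juvenile hormone action, was likewise below the floor in all larval arrays and rose at least 2.13-fold, with the same limit. With a higher floor, at the 20th percentile of the signals, its difference was 1.25-fold and it was not called (adjusted p = 0.22). *E23*, an ABC transporter gene, had 932, 1029 and 895 at 0 h, against 428, 1749 and 468 at -18 h. Its larval arrays straddled the prepupal ones, with replicate 2 above all of them, and *Eip93F* had the same arrangement with 325, 350.0 and 307 at 0 h, against 206, 985 and 296 at -18 h. Neither was called, nor were *Cyp18a1*, *Met*, *gce*, *tai*, *svp*, *Cth* and *Eip63E*. The early genes *Eip74EF* and *Eip75B* were not analysed here.

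A list of 7 regulators that the study picked from hormone-treated organs had 5 members that rose and none that fell. The median was 1.62 on the log2 scale. The choice had been made partly on these samples, so the direction of the list is not independent evidence. *Sox14*, a transcription factor gene, had 2009.8, 2115 and 2217 at 0 h, against 463, 519.7 and 478 at -18 h (4.34-fold, adjusted p = 0.00011). *brat*, which encodes a translational repressor, had 1316, 1659.8 and 1181 at 0 h, against 443, 232 and 424 at -18 h (3.9-fold, adjusted p = 0.0039). In both genes the larval values lay well under the prepupal ones, and for *brat* the larval replicate 2 was the lowest of the 6 arrays. *CG11275* (3.77-fold), the bHLH repressor gene *hry* (3.08-fold) and the zinc-finger gene *Blimp-1* (2.37-fold) completed the rises. *vri* had 771, 729.9 and 669 at 0 h, against 663, 508 and 590.1 at -18 h, and was not called. *cbt* had 563, 661 and 513 at 0 h, against 559.9, 316 and 514 at -18 h, and was not called. A count of 5 higher was also found in each of the 6 fits that left out 1 array.

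For the supply of the hormone, 4 of 10 tested genes of ecdysteroid synthesis and export rose and none fell. *Atet*, a transporter that loads ecdysone into vesicles, had 956, 1108 and 1005 at 0 h, against 273, 254 and 282 at -18 h (3.79-fold, adjusted p = 0.00019). *Start1*, a sterol transfer protein gene, rose 3.4-fold, and *Npc1a*, needed for sterol trafficking, rose 3.02-fold. *sad*, a P450 of the synthesis chain, rose 1.72-fold (adjusted p = 0.059), and that call was lost without -18 h replicate 2 or 0 h replicate 1, 2 or 3. *ouib*, a regulator of the prothoracic gland, had 194, 183 and 181 at 0 h, against 221, 463 and 251 at -18 h, and was not called. Of 4 juvenile hormone genes only *Jhbp11* was called, with 69.8, 65.2 and 73.8 at 0 h, against 102, 224 and 127 at -18 h (2.05-fold lower), and it was not called without 0 h replicate 1 or 2.

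In the salivary glands the glue genes are known to give way to the L71 late genes. Of 10 tested glue genes, 7 fell and none rose, with a median of -1.79 on the log2 scale. Without -18 h replicate 2 or 0 h replicate 2, 9 of the 10 were called lower. *Sgs1* had 407, 821 and 563 at 0 h, against 6758, 6464 and 6697 at -18 h (11.6-fold, adjusted p = 0.00029). *Sgs3* had 1971, 3196 and 2028 at 0 h, against 14933, 13083 and 15173 at -18 h (6.14-fold, adjusted p = 0.00046). *Sgs5* had 2585, 3374 and 3477 at 0 h, against 9642, 8470.3 and 9245 at -18 h (2.92-fold, adjusted p = 0.001). The prepupal arrays were below every larval array in these 3 genes, and 0 h replicate 1 was the lowest of the 6. *Muc68Ca* (5.94-fold), *ng3* (4.92-fold), *Sgs4* (4.09-fold) and *Sgs8* (1.76-fold) were the other members that fell, and the call of *Sgs8* was lost under quantile normalization. In samples of whole animals, fewer cells of a type and less RNA per cell cannot be told apart, here and in all groups that follow.

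The *Eig71E* genes, listed here together as L71 genes by their symbol, lie in 1 cluster on the left arm of chromosome 3. Of 8 tested members 5 rose and 3 fell. *Eig71Ed* had 5463, 4595 and 3854 at 0 h, against 389, 263 and 375 at -18 h (13.6-fold, adjusted p = 0.00011). *Eig71Eg* had 2646, 1970.4 and 1435 at 0 h, against 61.5, 144 and 76.6 at -18 h (22.3-fold, adjusted p = 0.00046). *Eig71Ee* ran the other way, with 2996, 4415 and 4257 at 0 h, against 9977, 8445 and 8630.2 at -18 h (2.35-fold lower, adjusted p = 0.0045). Thus neighbouring members of 1 cluster differed in direction without overlap of their arrays. *Eig71Ef* (4.51-fold) and *Eig71Ei* (2.06-fold) also rose, and *Eig71Eh* (2.02-fold) and *Eig71Ej* (1.72-fold) also fell. *Eig71Ei* was not called with the floor at the 20th percentile. In the order of the cluster the calls ran higher for *Eig71Ea* and *Eig71Ed*, lower for *Eig71Ee*, higher for *Eig71Ef* and *Eig71Eg*, lower for *Eig71Eh*, higher for *Eig71Ei* and lower for *Eig71Ej*. *Eig71Eb*, *Eig71Ec* and *Eig71Ek* were not analysed here. With 0 h replicate 1, 0 h replicate 2 or -18 h replicate 2 left out, *Eig71Ej* was not called, and 2 members in place of 3 were lower. The 6 Sgs genes that mark the salivary gland summed to 26390, 35730 and 29030 units at 0 h, against 74550, 68290 and 76130 at -18 h. The part of that fall in the changes of the L71 genes was not tested.

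Genes induced in imaginal discs, the IMP genes, had 2 of 5 members higher, with a median of 0.40 on the log2 scale (3 higher and 1.00 without -18 h replicate 2). *ImpE2*, an apical disc protein gene, had 6599, 6546 and 6823 at 0 h, against 659, 418 and 592 at -18 h (12.2-fold, adjusted p = 8.5e-05). *ImpE3* had 949, 894 and 754 at 0 h, against 112, 137 and 103 at -18 h (7.38-fold, adjusted p = 0.00011). In *ImpL1*, by contrast, the larval replicate 2 was the highest of the 6 arrays, with 416, 399 and 334 at 0 h, against 172, 789.5 and 211 at -18 h, and the gene was not called. *ImpL1* was also far below its later level, which was 7279 ± 569.6 at 4 h (mean ± SD, n = 3). Among 10 genes of disc eversion and actomyosin, 4 rose and 1 fell. *sn*, the actin-bundling protein Fascin, rose 5.9-fold, *p120ctn* 4.55-fold, *flw*, a myosin phosphatase subunit gene, 1.66-fold (not called under quantile normalization), and *Sb*, the Stubble protease gene, 1.51-fold, close to the fold limit and lost without 0 h replicate 1 or 2 or -18 h replicate 1 or 3. *p120ctn* had 588, 534 and 457 at 0 h, against 209, 45 and 121 at -18 h. The larval arrays of *p120ctn* were spread widely, with the lowest below the floor.

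Cuticle genes were read in 3 classes, and the median difference was below 0 in each. Of 6 larval cuticle genes 3 fell and none rose. *Lcp9* had 245, 207 and 187 at 0 h, against 3879.8, 3041 and 4794 at -18 h (18.1-fold, adjusted p = 6.2e-05). *Lcp65Ac* fell 6.51-fold and *Lcp65Aa* 1.97-fold, the second of which was lost without 0 h replicate 1, 2 or 3. Without -18 h replicate 1 the count of larval cuticle genes that fell was 5. Of 8 prepupal and pupal cuticle genes, *Pcp*, the pupal cuticle protein gene, had 1241, 2573 and 2322 at 0 h, against 537, 390.4 and 375 at -18 h (4.55-fold, adjusted p = 0.0035) and *Edg78E* fell 1.93-fold. *Pcp* was uneven among prepupae, with replicate 1 far below the others but still above all larvae. In the wider Cpr and Tweedle families of chitin-binding cuticle proteins, 19 of 75 tested genes fell and 4 rose, with a median of -0.40 on the log2 scale. *Cpr49Af* (8.32-fold), *Cpr47Ec* (7.61-fold) and *Cpr49Ah* (5.4-fold) were among the falls, and *Cpr12A*, with 3133, 2715 and 1992 at 0 h, against 597, 501 and 536 at -18 h, rose 4.73-fold. The number lower was 13 to 27 in the fits without 1 array.

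Genes of chitin synthesis and modification changed in both directions, with 9 of 40 higher and 13 lower. The chitinase gene *Cht5*, which acts in molting, had 2853, 2647 and 2232 at 0 h, against 453, 579 and 489.9 at -18 h (5.08-fold, adjusted p = 0.00022). *Cht10* (4.87-fold) and *obst-A* (4.42-fold), of the cuticle matrix, rose with it. Among the falls were *Muc55B*, a mucin gene, with 1231, 992 and 855 at 0 h, against 11126, 10301 and 11013 at -18 h (10.7-fold, adjusted p = 5.6e-05), *obst-E* (8.3-fold), and the gut-lining genes *Peritrophin-15a* (4.92-fold) and *Peritrophin-15b* (4.4-fold). The prepupal arrays of *Muc55B* were all below the larval ones, and the 3 larval values were close together.

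Tanning hardens the cuticle with catecholamines made from tyrosine. Of 17 tested genes of that route 8 rose and 3 fell. *ple*, tyrosine hydroxylase, had 10596, 11184 and 9266 at 0 h, against 434, 621 and 470.0 at -18 h (20.5-fold, adjusted p = 3.5e-05). *Ddc*, dopa decarboxylase, had 4833, 5039 and 5207 at 0 h, against 512, 154 and 385 at -18 h (16.1-fold, adjusted p = 0.0012). *e* had 8132, 7543 and 8207 at 0 h, against 113, 202 and 148 at -18 h (53.1-fold, adjusted p = 3.5e-05). The prepupal values were close together within each gene and above all larval arrays, and the larval values of *Ddc* spread most, with replicate 2 the lowest. *Pu* (11.8-fold), GTP cyclohydrolase, and *Dhpr* (5.47-fold) supply and restore the cofactor of tyrosine hydroxylase. *speck*, an acetyltransferase of dopamine, rose 10.3-fold, *yellow-f*, a dopachrome conversion enzyme gene, 3.94-fold, and *yellow-b* 1.86-fold. The 3 that fell were *amd* (2.48-fold), *yellow-e* (1.95-fold) and *yellow-g* (1.88-fold), the last not called without -18 h replicate 1 or 3 or any single 0 h array. In every fit without 1 array 8 members were higher.

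Digestive genes of the midgut fell. All 26 tested Jonah and trypsin proteases fell, by 1.6- to 16.8-fold, with a median of -1.61 on the log2 scale, against a background of 11.1% lower. The count was 25 or 26 in the fits that left out 1 array. *Jon66Cii* had 365, 430.4 and 429.9 at 0 h, against 8269.7, 6145 and 6281 at -18 h (16.8-fold, adjusted p = 3.5e-05). *betaTry* had 2827, 3672 and 3391 at 0 h, against 18602, 19237 and 18852 at -18 h (5.77-fold, adjusted p = 0.00011). *Jon25Bi* had 1544, 2350.1 and 1909.5 at 0 h, against 10978, 11504 and 12118 at -18 h (6.05-fold, adjusted p = 0.00023). Prepupal arrays lay below all larval arrays in these 3 genes, and the values at 0 h were still well above the floor. Several members are near-identical copies, *alphaTry* and *betaTry* among them, so their probe sets may share signal and the 26 genes are not independent observations.

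Genes of sugar, lipid and cell wall digestion followed in part, with 18 of 32 lower and 4 higher. *mag*, a gut lipase, had 322, 492 and 438 at 0 h, against 7567, 6701 and 7208 at -18 h (17.4-fold, adjusted p = 4.6e-05). *LysC*, a lysozyme gene of the gut, had 2050.2, 2885 and 2159 at 0 h, against 21739, 21739 and 21633 at -18 h (9.29-fold, adjusted p = 7.2e-05). *LysS* (9.86-fold), *LManV* (9.9-fold), *LManIII* (9.35-fold), *Mal-A3* (3.48-fold) and *Amy-d* (2.46-fold) fell as well. The larval values of *LysC* were nearly equal across the 3 arrays. The 4 that rose were *Npc2e* (3.32-fold), *Mal-A5* (2.65-fold), *Npc2b* (2.45-fold) and *Gal* (2.15-fold), of which the Npc2 genes encode sterol-binding proteins. The lysozyme, maltase and mannosidase genes also form families of close copies. The 26 proteases, which also serve as the midgut markers, summed to 71700, 82260 and 76180 units at 0 h, against 236000, 219100 and 230500 at -18 h, and their part in the falls of the other digestive genes was not tested.

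Immune genes were read by class, from effector peptides to signalling and recognition. Of 9 tested antimicrobial peptide genes, 2 rose and 1 fell, and the median was 0.04 on the log2 scale (-0.12 without -18 h replicate 2). *Drs*, the antifungal peptide Drosomycin, had 7268, 6829 and 6808 at 0 h, against 242, 293 and 224 at -18 h (27.7-fold, adjusted p = 1.2e-05). *Mtk*, Metchnikowin, had 272, 302 and 391 at 0 h, against 804, 505 and 792 at -18 h (2.16-fold lower, adjusted p = 0.016). *DptB* had 532, 493 and 724 at 0 h, against 635, 1141 and 693 at -18 h, and was not called. The 2 peptides that rose, *Drs* and *Drsl5*, belong to 1 family, and the antibacterial peptide *DptB* had overlapping arrays. In the Toll and Imd signalling list 8 of 18 genes rose and none fell (7 and 1 without -18 h replicate 2). They span both pathways, with *spz* (2.27-fold), *Tl* (1.63-fold), *Myd88* (2.54-fold), *pll* (1.62-fold) and the inhibitor *cact* (3.19-fold) of Toll, and *imd* (at least 2.37-fold), *key* (2.68-fold) and *Rel* (2.33-fold) of Imd. *cact* had 1731, 1419 and 1409.9 at 0 h, against 609, 318 and 553 at -18 h. *imd* lay below the floor in all 3 larval arrays, so its call takes in no larval spread. With the floor at the 20th percentile *imd* was not called (1.39-fold, adjusted p = 0.16), nor was *Tl*, whose call was also lost without -18 h replicate 2 or 3 or any single 0 h array.

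Of 6 peptidoglycan recognition protein genes 3 rose and 2 fell. *PGRP-SB2* had 8516, 7422 and 6149 at 0 h, against 350.4, 437 and 334 at -18 h (19.7-fold, adjusted p = 3.6e-05). *PGRP-SC2*, an amidase of the gut, had 1482, 2062 and 1609.8 at 0 h, against 8160.2, 8124 and 9246 at -18 h (4.99-fold lower, adjusted p = 0.00026). The 2 changed in opposite directions without overlap. *PGRP-SB1* (2.55-fold) and *PGRP-LA* (2.19-fold) rose, and *PGRP-LE* fell 1.67-fold. This fall did not pass when -18 h replicate 2 or 0 h replicate 1, 2 or 3 was left out, so that 1 member was then lower. Serpins and clip proteases, which control proteolytic cascades of the hemolymph, had 8 of 25 higher and 1 lower (6 and 3 without -18 h replicate 2). *Spn100A* had 6137, 5762 and 5428 at 0 h, against 204, 266 and 238 at -18 h (24.6-fold, adjusted p = 1.5e-05), and *Spn88Ea* (5.73-fold), *Spn43Aa* (4.3-fold) and *Sp7*, a melanization protease gene (3.07-fold), rose with it.

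Of 18 tested blood cell genes 8 fell and 2 rose. *PPO2*, a prophenoloxidase of crystal cells, had 444, 616 and 502 at 0 h, against 4870.4, 2649.8 and 3689 at -18 h (7.03-fold, adjusted p = 0.00064). *fon*, a clotting factor gene, had 1412, 1554 and 1348 at 0 h, against 4419.5, 4249 and 5112 at -18 h (3.19-fold, adjusted p = 0.00042). *PPO1* fell 2.57-fold, *NimB2* 1.85-fold and *NimB4* 1.57-fold, the last of which was not called without -18 h replicate 2. The 2 that rose were *crq* (3.26-fold), a phagocytic receptor gene, and *srp* (2.81-fold), a GATA factor gene. *crq* was not called without -18 h replicate 3 or any single 0 h array. With 0 h replicate 1 left out 0 were higher, and with 0 h replicate 2 or -18 h replicate 3 left out 1 was. The summed signal of 7 hemocyte markers was 2734, 2730 and 2551 units at 0 h, against 8062, 5825 and 6618 at -18 h. These markers overlap the list, and *PPO2* alone had 4870.4, 2649.8 and 3689 of the -18 h sums. The median of the 7 markers, on the log2 scale against the mean of the 6 arrays, was -0.173, -0.264 and -0.138 at 0 h. At -18 h it was 0.344, 0.0515 and 0.236, and *crq*, among the 7, rose. In the basement membrane list 8 of 18 genes rose, among them the laminin genes *LanB1* (2.33-fold), *LanA* (2.25-fold) and *LanB2* (2.2-fold) and perlecan, *trol* (2.07-fold), while *Ndg* (2.17-fold) fell. With 0 h replicate 1 or 2 left out, 3 and 2 were higher, and neither *LanB1* nor *trol* was among them.

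**Figure D2:**
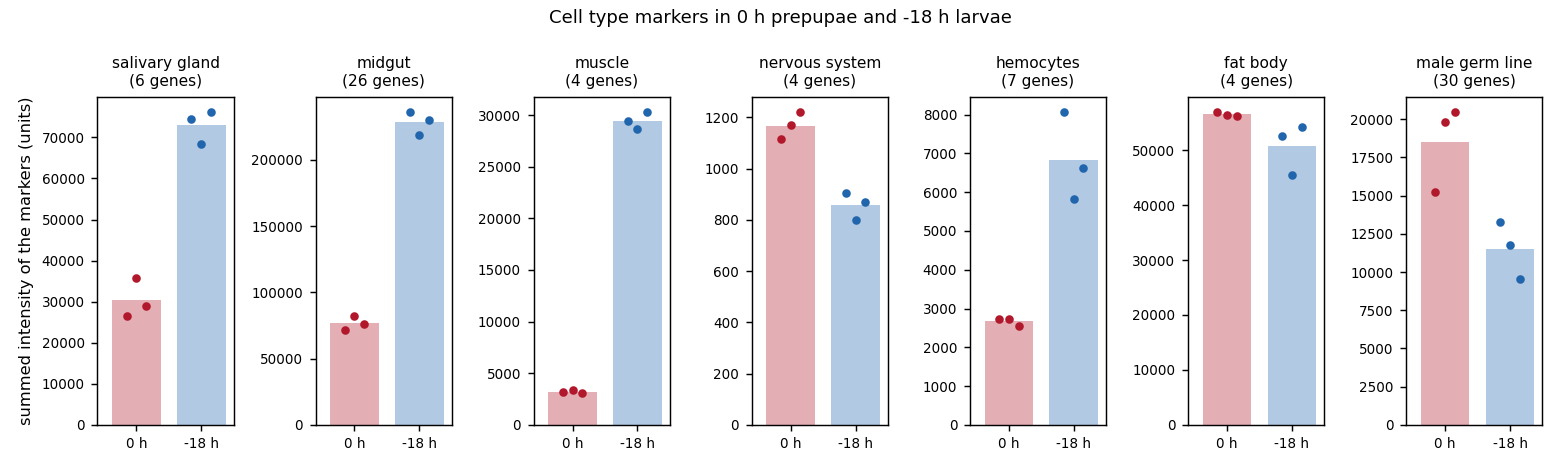
Summed intensity, in array units, of the marker genes of 7 tissues or cell types in 0 h prepupae (red) and -18 h larvae (blue); points are arrays and bars are means of 3 arrays. The sums of the salivary gland, midgut, muscle and hemocyte markers are lower at 0 h, the hemocyte sum largely through *PPO2*. The sums of the 4 nervous system markers measured and of the male germ line markers are higher, and those of fat body differ little. In the wider nervous system list 17 of 26 genes had a difference below 0, and 12 of the 30 male germ line genes did.

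Genes of tissue breakdown were examined next. Autophagy genes, which act when larval tissues digest themselves, rose in 11 of 23 cases with none lower, and 20 of 23 had a difference above 0. *Atg7*, the activating enzyme of the conjugation system, had 945, 843 and 975 at 0 h, against 222, 78 and 182 at -18 h (6.27-fold, adjusted p = 0.0038). *Atg18b* had 625, 659 and 616 at 0 h, against 149.8, 96.9 and 127 at -18 h (5.17-fold, adjusted p = 0.00034). *Atg1*, the initiating kinase, had 543, 448 and 498 at 0 h, against 203, 156 and 213 at -18 h (2.62-fold, adjusted p = 0.002). No prepupal array overlapped a larval one, and the larval replicate 2 was the lowest array in each. *Atg13* (3.32-fold), *ref(2)P* (3.01-fold), *Atg2* (2.42-fold), *Atg3* (2.37-fold) and *Atg5* (2.19-fold) rose too. The count was 10 to 13 in the fits that left out 1 array.

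In the programmed cell death list 5 of 12 genes rose and 1 fell. *Dronc*, the initiator caspase, had 977, 826 and 778 at 0 h, against 265, 216 and 226 at -18 h (3.65-fold, adjusted p = 0.00042). *Dark*, its adaptor, had 354, 396 and 392 at 0 h, against 146, 241 and 175 at -18 h (2.07-fold, adjusted p = 0.011). The Bcl-2 family genes *Buffy* (2.32-fold) and *Debcl* (1.52-fold) and *scyl* (5.15-fold), a growth inhibitor gene, rose as well. *Debcl* was not called without -18 h replicate 2 or 3 or any single 0 h array. *Damm*, a caspase gene, fell 1.67-fold, and this was lost without -18 h replicate 2 or 0 h replicate 1, 2 or 3, leaving 0 lower. The death activators *rpr* and *hid* were not analysed here. Among 39 lysosome and proton pump genes 7 rose and 7 fell (35.9% called, against 29% over all tested probe sets). The number higher was no more than the background share of 17.9%. *Npc2a*, a sterol-binding protein of the lysosome, rose 3.89-fold, and the falls included *Vha100-5* (2.77-fold) and *Vha100-4* (2.41-fold), 2 isoforms of the same pump subunit, besides the mannosidases of the gut. *Vha100-4* was not called with the floor at the 20th percentile (1.42-fold). Without 0 h replicate 1 or 2 the number higher was 4.

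The proteasome degrades proteins tagged with ubiquitin. Of 39 tested subunit genes 27 rose and 2 fell, with a median of 1.26 on the log2 scale and 25 to 28 higher in the fits that left out 1 array. *Rpn6* had 3103, 3303 and 2621 at 0 h, against 885, 453 and 727 at -18 h (4.52-fold, adjusted p = 0.002). *Rpt4*, an ATPase of the cap, had 2450.3, 2122 and 1989 at 0 h, against 822, 529 and 658 at -18 h (3.31-fold, adjusted p = 0.0015). *Rpn2* had 1735, 1827 and 1751 at 0 h, against 817, 786 and 798 at -18 h (2.21-fold, adjusted p = 0.00086). The prepupal values lay above all larval ones, and the larval replicate 2 was the lowest of the 6 arrays in each. When the list was divided by symbol after its values had been seen, all 26 subunits without a variant suffix rose, by 1.69- to 4.52-fold. Of 13 genes whose symbol ends in T or R, the variant copies, 1 rose (*Prosbeta4R2*, 1.68-fold) and 2 fell (*Prosalpha3T*, 1.9-fold, and *Prosbeta2R2*, 1.53-fold). The 2 falls were not called without -18 h replicates 2 or 3 or 0 h replicate 1, 2 or 3.

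Chaperone genes rose in 7 of 14 cases and fell in 2. *Hsp26* had 7840.3, 8403 and 8216 at 0 h, against 885, 696 and 633 at -18 h (11.2-fold, adjusted p = 4.7e-05). *Hsp27* had 6461, 6638 and 7281 at 0 h, against 1211, 745 and 1003 at -18 h (7.01-fold, adjusted p = 0.00026). *l(2)efl*, also a small heat shock protein gene, had 1739, 2160.0 and 2109.6 at 0 h, against 6423, 5198 and 5556 at -18 h (2.86-fold lower, adjusted p = 0.00095). Members of the small heat shock class thus changed in both directions. *Hsp68* (4.01-fold), *Hsf* (2.96-fold), the heat shock transcription factor gene, and *DnaJ-1* (2.54-fold) rose. Without -18 h replicate 2 or 3, or 0 h replicate 1, 2 or 3, 1 chaperone gene was lower.

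Protein synthesis was covered by 4 lists. Of 60 translation factor and tRNA synthetase genes 26 rose and none fell, with 53 of 60 above 0. *eRF1*, the release factor, had 2329.6, 2044 and 2178 at 0 h, against 711, 256 and 516 at -18 h (4.8-fold, adjusted p = 0.0055). *eIF3i* had 2343, 1997 and 2118 at 0 h, against 1308, 665 and 973 at -18 h (2.27-fold, adjusted p = 0.016). Larval replicate 2 was the lowest array in both. The count of 26 fell to 9, 9 and 14 when 0 h replicate 1, 2 or 3 was left out. It was 32, 18 and 16 when -18 h replicate 1, 2 or 3 was left out. Of 30 genes of the secretory pathway 14 rose and none fell, by 1.52- to 2.04-fold, with *Cnx99A*, a calnexin gene (1.98-fold), and *Srp19* (1.97-fold) as examples. That count was 3, 3 and 6 when 0 h replicate 1, 2 or 3 was left out, and 21, 6 and 8 for the -18 h replicates in the same order. Only 3 of 37 cytosolic and 4 of 64 mitochondrial ribosomal protein genes were called, all higher. These shares, 8.11% and 6.25%, were under the 17.9% higher over all tested probe sets. Of the cytosolic genes 34 of 37 had a difference above 0, with a median of 0.24 on the log2 scale, and of the mitochondrial ones 41 of 64. *RpL7-like*, a variant copy by symbol, had 729.6, 679.8 and 645 at 0 h, against 223, 223 and 195 at -18 h (3.21-fold, adjusted p = 0.00033). The counts of called cytosolic and mitochondrial genes were 1 and 2 without 0 h replicate 1 or 2, and 6 and 7 without -18 h replicate 1. Of 42 cell cycle and replication genes 3 rose (7.14%, also under the 17.9% over all tested probe sets), and this number was 0 to 7 in the fits without 1 array.

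Of 18 genes of glycolysis and trehalose or glycogen use, 9 fell and 1 rose, with a median of -0.80 on the log2 scale (-1.07 and 12 lower without -18 h replicate 2, and -0.61 and 6 lower without -18 h replicate 3). Without 0 h replicate 1, 2 or 3 the number lower was 6, 7 and 7. *Ald1*, aldolase, had 2363, 2541 and 2342 at 0 h, against 8008, 8823 and 9263 at -18 h (3.6-fold, adjusted p = 0.0002). *Glyp*, glycogen phosphorylase, had 595, 562 and 573 at 0 h, against 2959.6, 1469 and 2709 at -18 h (3.95-fold, adjusted p = 0.0033). *Pglym78*, phosphoglycerate mutase, had 987, 1020.1 and 900.0 at 0 h, against 4591, 2275 and 5368 at -18 h (3.95-fold, adjusted p = 0.0058). Larval replicate 2 was between the prepupal arrays and the other larval arrays for *Glyp* and *Pglym78*. *Eno* (2.54-fold), *Gapdh1* (1.91-fold) and *Pfk* (1.88-fold) fell too, and *Treh* (3.71-fold), trehalase, rose, a call lost without 0 h replicate 1. The citric acid cycle had 2 of 21 lower and 1 higher (4 and 1 without -18 h replicate 2), and 69 respiratory chain and ATP synthase genes had 8 lower and 4 higher (10 and 4 without -18 h replicate 2). Called were 14.3% and 17.4% of these lists, under the 29% over all tested probe sets. *Idh3g* had 1212, 1248 and 1107 at 0 h, against 2809.9, 2646 and 3007 at -18 h (2.37-fold lower). *ATPsyndelta* had 1416, 1499.8 and 1611 at 0 h, against 3233, 4451 and 3690.4 at -18 h (2.49-fold lower). In both genes the arrays of the stages were apart. The 4 respiratory genes that rose were *COX4L*, *COX7AL*, *COX5BL* and *ATPsynCF6L*, all variant copies by symbol, and 2 were called without 0 h replicate 2 or 3 or -18 h replicate 3.

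Genes of purine, urate and amino acid metabolism rose in 10 of 24 cases and fell in 1 (3 without -18 h replicate 1 or 2). *Gart*, a purine synthesis enzyme gene, had 2232, 2194 and 2123 at 0 h, against 616, 349 and 551 at -18 h (4.44-fold, adjusted p = 0.0012). *Gnmt*, glycine N-methyltransferase, had 62.9, 66 and 68 at 0 h, against 516, 236 and 347 at -18 h (5.31-fold lower, adjusted p = 0.0017). All prepupal values of *Gnmt* were close to the floor. Other rises were *Gs1* (8.55-fold), a glutamine synthetase, *Paics* (4.55-fold) and *Prat2* (3.27-fold) of purine synthesis, *slgA*, proline dehydrogenase (3.87-fold), and *Shmt* (3.2-fold). In lipid metabolism 6 of 27 rose and 2 fell (29.6% called, near the 29% over all tested probe sets). *Acsl*, an acyl-CoA synthetase (2.68-fold), *mdy*, which makes triglyceride (2.56-fold), and *whd*, carnitine palmitoyltransferase (2.22-fold), rose, and *FASN1*, fatty acid synthase, fell 3.15-fold. *FASN1* had 317, 237 and 244 at 0 h, against 1255, 437 and 1047 at -18 h. The number of lipid genes lower was 5 without -18 h replicate 1 and 1 without -18 h replicate 2, 0 h replicate 1 or 0 h replicate 2.

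Growth pathway genes were higher in 7 of 19 cases and lower in 1. *Ilp8*, an insulin-like peptide that imaginal discs use to time metamorphosis, had 2244, 2239 and 2187 at 0 h, against 348, 406 and 364 at -18 h (5.98-fold, adjusted p = 5.1e-05). *Sesn*, sestrin, an inhibitor of TOR, had 493, 388 and 357 at 0 h, against 81.7, 33.6 and 62.9 at -18 h (at least 6.04-fold, adjusted p = 0.0003). *slif*, an amino acid transporter gene, rose 3.9-fold and *Akt* 2.18-fold. Without 0 h replicate 1, 2 or 3 4 members were higher and 0 lower. Fat body storage and serum genes had 3 of 14 higher and none lower, and 1 higher without 0 h replicate 1, 2 or 3. With all arrays 21.4% of them were called, against 29% over all tested probe sets. *Fbp1*, a storage protein receptor, was high at both stages, with 18676, 19097 and 19024 at 0 h, against 13827, 13274 and 14129 at -18 h, and the 1.38-fold difference was under the fold limit. The 4 fat body markers summed to 56910, 56500 and 56190 units at 0 h, against 52550, 45570 and 54270 at -18 h, ranges that do not overlap but lie near each other.

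The larval body wall muscles drive crawling and the shortening of the body. Of 21 sarcomere genes 10 fell and 2 rose. *Mlc2*, the myosin regulatory light chain, had 1231, 1330.0 and 1084 at 0 h, against 14857, 15738 and 15626 at -18 h (12.7-fold, adjusted p = 2.6e-05). *Mlc1*, the myosin alkali light chain, had 552, 669 and 627 at 0 h, against 7444, 7159.7 and 7647 at -18 h (12.1-fold, adjusted p = 2.6e-05). *up*, troponin T, had 653, 721 and 639 at 0 h, against 3783, 3714 and 3648 at -18 h (5.54-fold, adjusted p = 5.4e-05). In all 3 genes both stages were tight, larval replicate 2 included. *Prm* (6.31-fold), paramyosin, *Mp20* (4.54-fold), *Tm2* (4-fold) and *Mf* (2.34-fold) fell, and *tn* (2.44-fold) and *Zasp66* (1.87-fold) rose, of which 1 was called without -18 h replicate 2 or 0 h replicate 1, 2 or 3. The 4 muscle markers *Mlc1*, *Mlc2*, *up* and *Tm2*, all members of the list, summed to 3147, 3400 and 3074 units at 0 h, against 29430, 28610 and 30270 at -18 h.

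Neural genes were mixed, with 6 of 26 higher and 4 lower, and the median was -0.25 on the log2 scale with 17 of the 26 below 0. Of the list 38.5% was called, against 29% over all tested probe sets. The largest rise in the list was that of *ple*, which is also a tanning gene. *elav*, a neuronal RNA-binding protein, had 160.1, 139.8 and 181 at 0 h, against 94.8, 66.1 and 82.7 at -18 h (1.98-fold, adjusted p = 0.0092). *nSyb*, a synaptic vesicle protein gene, had 543, 589.8 and 590.4 at 0 h, against 360.2, 379 and 317 at -18 h (1.63-fold, adjusted p = 0.0087). *unc-13* was below the floor in all larval arrays and rose at least 2.3-fold, a call that takes in no larval spread. With the higher floor it differed 1.35-fold and was not called. The 4 that fell were *Rbp9* (1.81-fold), an RNA-binding protein gene of neurons, *para* (1.64-fold), the sodium channel gene, *ChAT* (1.55-fold), which makes acetylcholine, and *Sh* (1.51-fold), a potassium channel gene. With the higher floor *ChAT* differed 1.19-fold and was not called (limma, adjusted p = 0.28). Under quantile normalization neither *ChAT* nor *Sh* was called. Without -18 h replicate 2 or 0 h replicate 2 only 1 neural gene was lower. Of 7 markers 4 were measured, *elav*, *nSyb*, *brp* and *Rdl*, all members of the list, and they summed to 1115, 1169 and 1220 units at 0 h, against 904.4, 799.2 and 867.8 at -18 h. Most of that difference lay in *elav* and *nSyb*, and the list as a whole leaned the other way. Of 28 neuropeptide and receptor genes 6 were lower and 1 higher, among them *Nplp4* (2.32-fold) and *AstC*, allatostatin C (1.94-fold). The count lower was 3 without -18 h replicate 2 or 0 h replicate 1, 2 or 3.

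Of 30 tested testis genes 12 were higher and 2 lower, the falls being lost without 0 h replicate 1 or 2 or -18 h replicate 2 or 3. *Mst87F*, a sperm protein gene, had 1241, 1740.0 and 1921 at 0 h, against 723, 460.3 and 386 at -18 h (3.18-fold, adjusted p = 0.0067). *Mst84Dd* had 2533, 3585 and 3111 at 0 h, against 1537, 1019 and 713 at -18 h (2.94-fold, adjusted p = 0.01). In both genes the arrays varied within each stage, and replicate 1 was the lowest prepupal array and the highest larval array. The number higher was 2 and 4 when 0 h replicate 2 or 3 was left out, and 5 when -18 h replicate 3 was. The 30 testis genes summed to 15270, 19810 and 20460 units at 0 h, against 13300, 11770 and 9550 at -18 h. Of the 30, 18 had a difference above 0 and 12 below. The labels do not give the sex of the animals, and its part in these values was not tested. Of 7 sex determination and dosage genes *msl-2* alone was called, with 310.3, 352 and 428 at 0 h, against 465, 690.5 and 534 at -18 h (1.54-fold lower). It was not called without 0 h replicate 1 or 2 or -18 h replicate 2 or 3.

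Detoxification genes act mainly in the gut, fat body and Malpighian tubules. Of 73 tested cytochrome P450 genes 32 were lower and 2 higher, with a median of -0.47 on the log2 scale. *Cyp6a21* had 51.1, 71.1 and 69 at 0 h, against 505, 219 and 356 at -18 h (5.11-fold, adjusted p = 0.0025). *Cyp4d14* had 93.3, 84.6 and 92.6 at 0 h, against 211, 209.8 and 193 at -18 h (2.27-fold, adjusted p = 0.00096). Both genes were near the floor at 0 h, which limits the fold that can be read. The count lower was 17 without 0 h replicate 1 or 2 and 26 without -18 h replicate 2. Of 59 glutathione and sugar conjugation genes 19 were lower and 8 higher. *Ugt36D1* had 2453, 2279 and 2401 at 0 h, against 439, 444 and 459.6 at -18 h (5.31-fold higher, adjusted p = 5.1e-05). *Ugt35A1* was below the floor in all 0 h arrays, against 271, 147 and 199.5 at -18 h, a fall of at least 3.31-fold. *GstS1* (2.81-fold) and *GstO3* (2.51-fold) rose, while *GstE7* (3.07-fold) and *GstE6* (2.44-fold) fell, the second not called with the floor at the 20th percentile. With 0 h replicate 1 or 2 left out, 12 and 11 were lower. The falls of the midgut markers went with these lists, and their part in them was not tested.

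Smaller apical and patterning lists were mixed. Of 31 Osiris and zona pellucida protein genes 3 rose and 4 fell (22.6% called, under the 29% over all tested probe sets). Among them *neo* (3.16-fold) and *pio* (2.27-fold) were higher and *zye* (3.39-fold) and *Osi2* (1.75-fold) lower. The number lower was 2 without 0 h replicate 2 and 7 without -18 h replicate 1. Of 11 genes of the Enhancer of split complex, targets of Notch signalling, 3 rose by 1.78- to 1.99-fold. *Kaz-m1*, a Kazal-type protease inhibitor gene that lies in the complex, had 545, 499 and 491 at 0 h, against 5629, 2309.7 and 3927 at -18 h (7.26-fold lower, adjusted p = 0.0014).

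**Figure D3:**
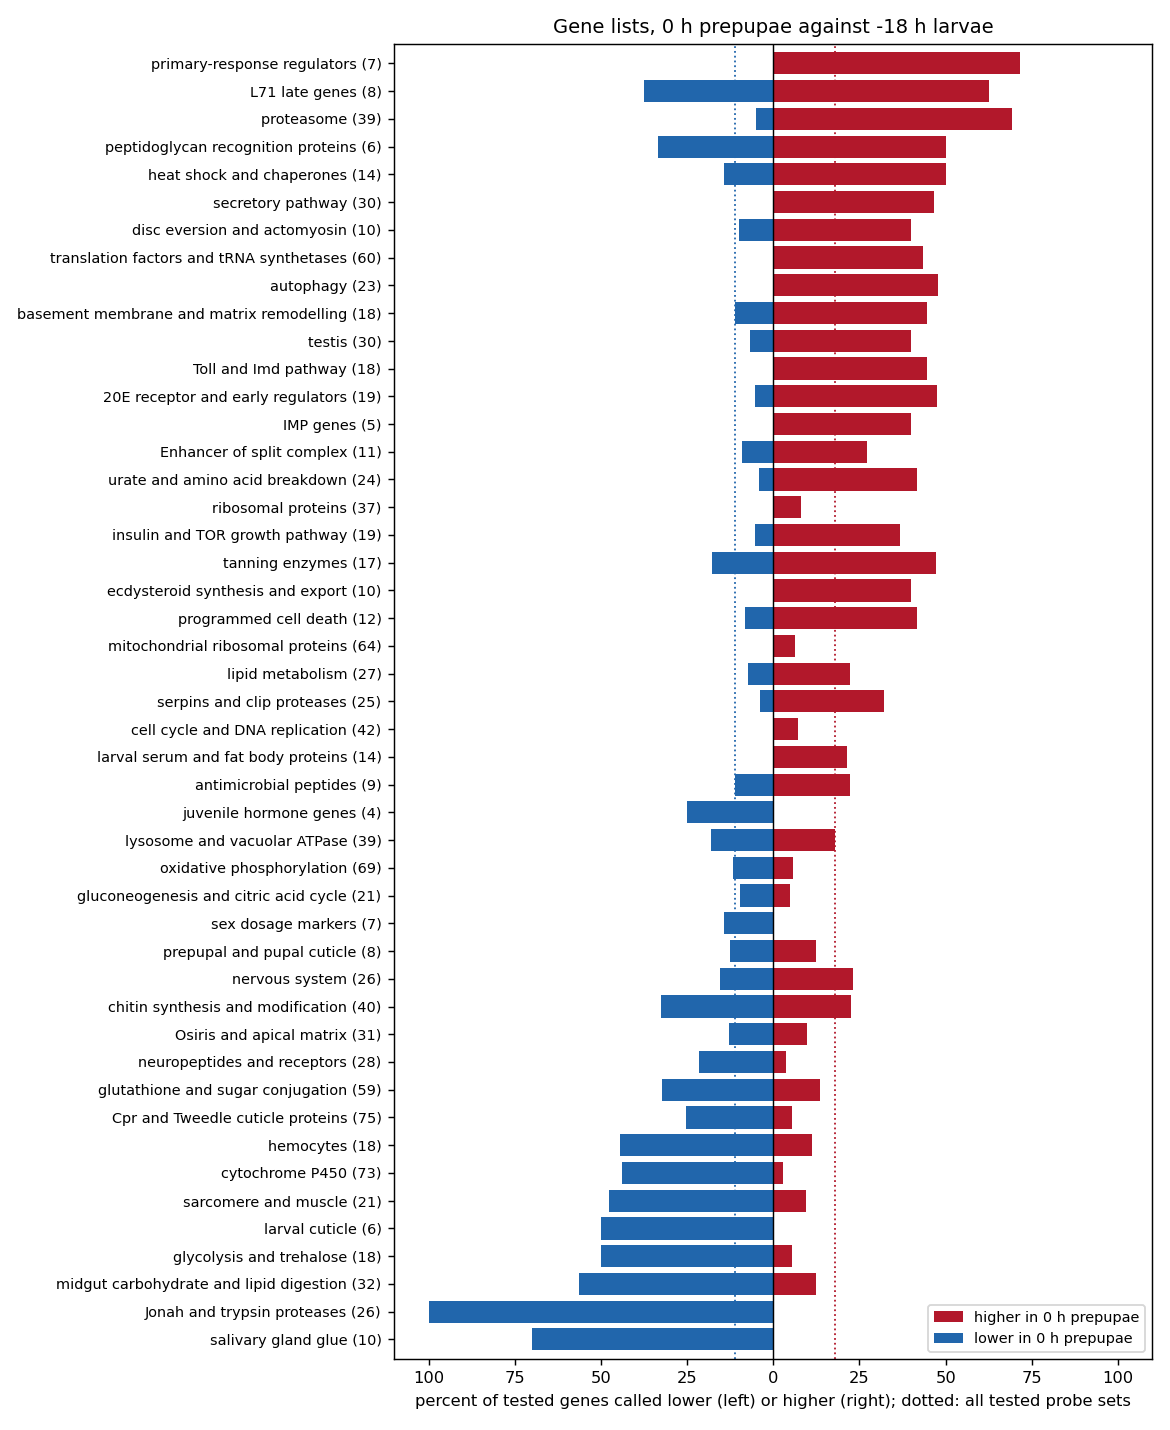
Percent of the tested genes of each list called higher (red, right) or lower (blue, left) in 0 h prepupae than in -18 h larvae, with the number tested in parentheses; dotted lines give the same percent over all tested probe sets, 17.9% higher and 11.1% lower. All 26 Jonah and trypsin proteases and 7 of 10 glue genes are lower, and 27 of 39 proteasome genes and 5 of 7 primary-response regulators are higher.

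To place the changes within the interval, the step from -4 to 0 h was compared with the step from -18 to -4 h in a fit to the 9 arrays of these stages. A positive contrast means that the later step was more upward, or less downward, than the earlier one. Of 12716 probe sets 147 differed between the steps (1.16%), and 902 had an unadjusted p under 0.05. The count ranged from 44 without -4 h replicate 2 to 379 without -18 h replicate 2, and was 55 without -4 h replicate 3. The -4 h arrays correlated at 0.917 to 0.992 with each other. Contrasts of single genes were not followed through the fits without 1 array, so their placement before or after -4 h is uncertain to that extent. Among probe sets higher at 0 h, 85 differed, of which 69 had the larger rise before -4 h and 16 after. Among those lower, 41 differed, of which 21 had the larger fall before -4 h and 20 after. The earlier step covers more hours than the later one, so a larger earlier step does not mean a faster change. The calls and the contrast also share the -18 h and 0 h arrays, of which those at -18 h spread more. Call and contrast are thus not independent, and these splits are given as a description only. A further 21 were not called between 0 h and -18 h, of which 18 were highest and 3 lowest at -4 h among the 3 stages.

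Genes with the larger rise before -4 h included both drosomycin-type genes, tanning genes, *Sox14* and *Eip78C*. *Drsl5* averaged 128 ± 6.14 at -18 h, 4372 ± 1186 at -4 h and 8603 ± 247 at 0 h (mean ± SD, n = 3 each; contrast -4.05, adjusted p = 0.00068). *Ddc* averaged 350.3 ± 181 at -18 h, 5511 ± 385 at -4 h and 5026 ± 187 at 0 h (contrast -4.27, adjusted p = 0.022). *Pcp* averaged 434 ± 89.5 at -18 h, 5107 ± 988 at -4 h and 2045 ± 708 at 0 h (contrast -4.93, adjusted p = 0.0034). The means of *Drsl5* rose over both steps, those of *Ddc* were alike at -4 h and 0 h, and those of *Pcp* were lower at 0 h than at -4 h. Among the 16 with the larger rise in the last step were *speck*, *Eig71Ed*, *Ilp8*, *Npc2b*, *PGRP-SB2* and *spz*. *speck* averaged 472 ± 59.7 at -18 h, had 421, 541 and 342 at -4 h and averaged 4840.4 ± 468 at 0 h (contrast 3.63, adjusted p = 0.0015). *Ilp8* averaged 373 ± 29.8 at -18 h, 416 ± 22.9 at -4 h and 2223 ± 31.7 at 0 h (contrast 2.26, adjusted p = 0.0014). Of the 6 tanning genes that passed, *Ddc*, *Dhpr*, *ple* and *e* had the larger rise before -4 h and *speck* after it, and *yellow-e* had the larger fall after -4 h (means of 642, 1035 and 328 at -18, -4 and 0 h).

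Among the falls, *Sgs3* averaged 14396 ± 1144 at -18 h, 13657 ± 811 at -4 h and 2398 ± 691 at 0 h (contrast -2.47, adjusted p = 0.015). *Sgs1*, *Sgs4*, *Sgs5* and *Eig71Ee* had contrasts of -2.64, -2.35, -1.72 and -1.80 and also fell mainly after -4 h. The muscle gene *Mlc1* averaged 7417 ± 245 at -18 h, 1028 ± 316 at -4 h and 616 ± 59.4 at 0 h (contrast 2.19, adjusted p = 0.026). *Mlc2*, *up*, *Lcp9*, *LManVI*, *LManV*, *PPO2*, *Ald1* and *Idh3g* had contrasts above 0 as well, with the larger fall before -4 h. Genes of digestion and the gut lining were on both sides, since *Ser8* (-1.33) and *Peritrophin-15a* (-0.99) had the larger fall after -4 h and the mannosidase genes before it. The proteasome list had a median difference of 1.16 on the log2 scale before -4 h and 0.15 after it. The glue list had -0.05 before and -1.35 after it.

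**Figure D4:**
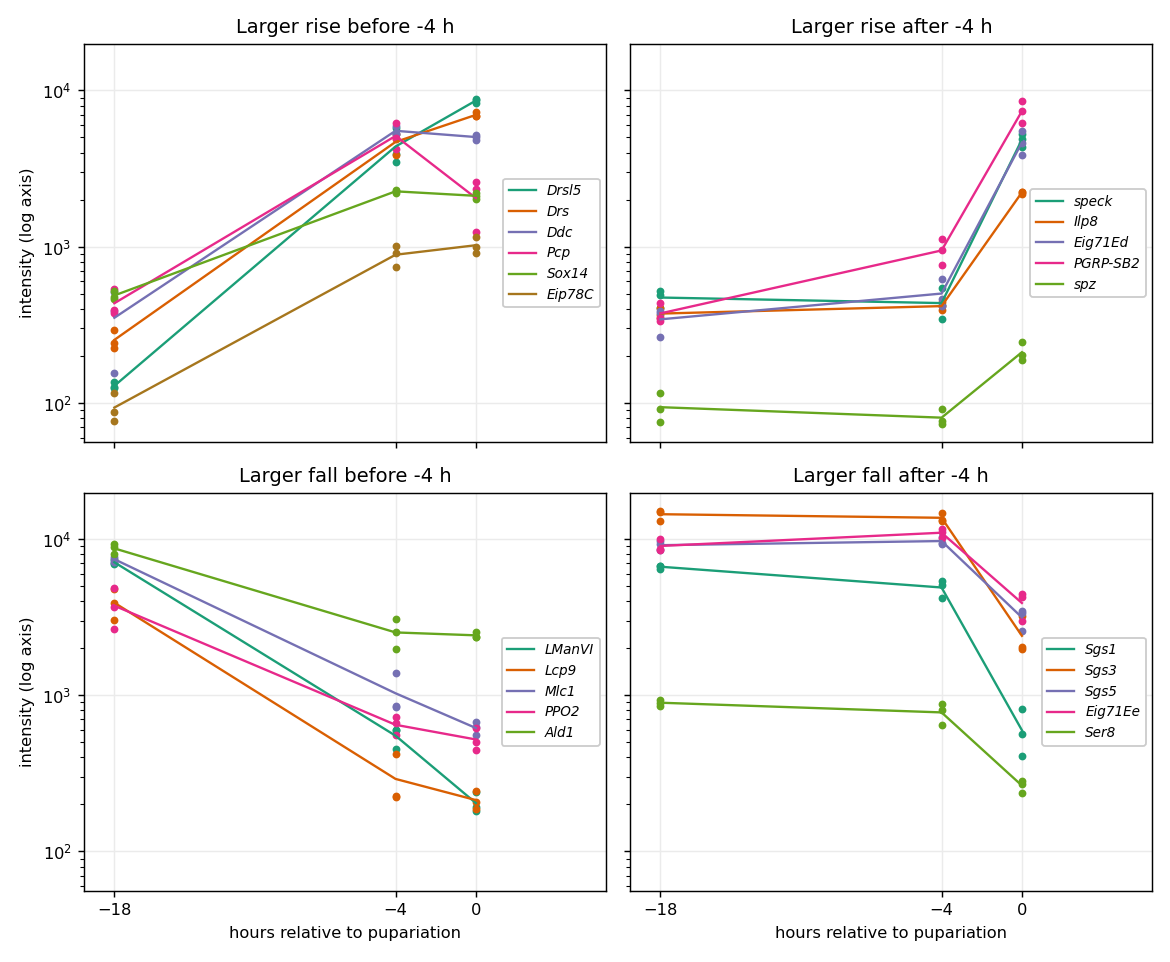
Intensity (log axis) against hours relative to pupariation for 21 genes whose step after -4 h differed from the step before it, in 4 panels by direction and by the larger step; points are arrays and lines join means of 3 arrays. *Drsl5*, *Ddc* and *Sox14* had risen by -4 h, *speck* and *Ilp8* had not, *Mlc1* had fallen by -4 h and *Sgs3* had not.

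Seen over the whole time course of 9 stages, 927 of the 2273 probe sets higher at 0 h than at -18 h (40.8%) had their highest mean at 0 h, 481 (21.2%) at 4 h and 308 (13.6%) at 12 h. Over all tested probe sets these shares were 12.6, 8.67 and 11%. The choice of probe sets by the difference between 0 h and -18 h favours these stages, so nothing is read from the shares. Among the top rises, *CG14664* averaged 10291 ± 243 at 0 h and 169.9 ± 4.86 at 4 h (mean ± SD, n = 3). *Spn100A* and *Eig71Ea* were higher still at 4 h, at 8911 ± 744 and 9962 ± 166. Of the 1413 probe sets that were lower, 1203 (85.1%) had their highest mean of the whole course at -18 h, where 29.8% of all tested probe sets had theirs, and the same limit holds. Their lowest mean fell at 0 h in 439 cases (31.1%) and at 4 h in 364 (25.8%), against 14.7 and 10.9% of all tested.

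Position was described with the gene order of the Release 6 annotation, without a test. Of 825 genes that fell and whose next gene was tested, 186 (22.5%) had a next gene that fell as well, where 10.7% of all 7669 pairs had such a next gene. For rises the figures were 305 of 1388 (22%) against 18.4%. The longest runs of falls were 8 adjacent trypsin genes on 2R, by 1.8- to 11.9-fold, 6 genes on 3R that include *Cyp313a1*, *Jig*, *CG8087* and *CG14852*, by 1.75- to 25.9-fold, and *GstE4* to *GstE9*, by 1.64- to 3.07-fold. Most such runs are families of related genes, whose probe sets may share signal. *CG7924* and *CG7906*, both among the 15 largest rises, are separated by 1 gene on 3L. Of 990 genes with more than 1 tested probe set, 107 had at least 2 called and 22 were called in both directions. Each gene was read from its brightest probe set only, so a stated direction may not hold for its other probe sets.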

How the data were processed

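Total RNA from 10 whole animals per sample had been made into biotin-labelled cRNA and hybridised to 1-colour Affymetrix arrays. The authors computed and normalized the deposited values with dChip, version 1.2, as intensities on a linear scale for 13966 probe sets in 27 arrays. The scan order and the arrays' raw files were not used here. Of the probe sets, 12442 had 1 gene symbol, 327 several and 1197 none, and 12393 were matched to the Release 6 reference, which served for names and gene order only.

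A floor of 60.26 units, where 10% of all values lie below, replaced every lower value ahead of the log2 step. Probe sets above the floor in at least 3 of the 6 arrays were fitted with limma (version 3.58.1, R 4.3.3) using lmFit and eBayes, and Benjamini-Hochberg adjustment ran over all of them. The methods of the study name SAM at a 10% false discovery rate, and the limit of 0.1 follows it. A gene was read from its brightest probe set. Full values were given for the 15 largest rises and falls whose arrays do not overlap, up to 5 members per list with the lowest adjusted p, and all members of the first 2 lists. The members and the gene lists were chosen with earlier results of these data known, and genes named beyond that rule were chosen after their values were seen. On simulated data the median estimate was close to the changes that had been put in, and those called had the right sign. A true change of 1.5-fold lies at the fold limit and can be missed. With spreads as unequal as those of both stages the fit made more false calls than the nominal rate, so calls near the limits are uncertain. The number of arrays limits the precision. Replicate numbers do not pair the samples, and the fit with the replicate as a block is an alternative. The promoter motif search was not run, and no sequence or coordinate is given.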

Additional observations from a re-analysis of the deposited data

Results flagged for a closer look

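The step from -4 to 0 h differed from the step from -18 to -4 h for 147 probe sets (limma, adjusted p under 0.1). The values that follow are the later step minus the earlier step on the log2 scale, for each gene that passed among those chosen by the rule for named genes or held in a gene list.

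Below 0 among genes higher at 0 h than at -18 h were *Pcp* at -4.93, *CG7906* at -4.55, *CG14664* at -4.30, *Ddc* at -4.27, *CG2444* at -4.23, *Drsl5* at -4.05, *CG7924* at -3.92, *CG5171* at -3.89, *Drs* at -3.62, *Dhpr* at -3.26, *Eip78C* at -3.05 and *e* at -3.01. Smaller values of the same kind were those of *Hsp26* at -2.83, *ImpE2* at -2.62, *Hsp27* at -2.57, *Ugt301D1* at -2.49, *ple* at -2.46, *Sox14* at -2.31, *Gs2* at -2.08, *Sp7* at -1.84, *CG14687* at -1.77, *ATPCL* at -1.60, *Mal-A5* at -1.50, *Atet* at -1.59, *Ugt36D1* at -1.35, *Rpn3* at -1.32 and *Rpn2* at -0.90. These genes had the larger rise before -4 h.

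Above 0 among the genes that were higher at 0 h were *speck* at 3.63, *Eig71Ed* at 2.67, *Npc2b* at 2.31, *Ilp8* at 2.26, *PGRP-SB2* at 1.64 and *spz* at 1.60, which had the larger rise after -4 h.

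Among genes lower at 0 h, *Sgs1* at -2.64, *Sgs3* at -2.47, *Sgs4* at -2.35, *yellow-e* at -2.33, *Eig71Ee* at -1.80, *Sgs5* at -1.72, *CG5084* at -1.60, *Ser8* at -1.33 and *Peritrophin-15a* at -0.99 had the larger fall after -4 h. The larger fall came before -4 h for *Lcp9* at 3.39, *Mlc2* at 2.42, *LManVI* at 2.27, *Mlc1* at 2.19, *PPO2* at 2.18, *LManV* at 2.13, *Ald1* at 1.77, *up* at 1.34 and *Idh3g* at 1.16.

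*Act79B*, at 1.45, was not called between 0 h and -18 h and had its lowest mean of the 3 stages at -4 h.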

How the results depend on the processing

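The count of changed probe sets, 3686, was 3129 to 4284 under the 10 other settings of normalization, floor, filter and fit, and 2324 to 4998 without 1 array. The count higher was 1512 to 2723 and the count lower 812 to 2275 without 1 array. Quantile normalization gave 56.5% of changed probe sets as higher, against 61.7%. The step contrast counted 44 to 379 without 1 array, with 76, 90 and 92 without 0 h replicates 1, 2 and 3, 55 without -4 h replicate 3 and 80 without -18 h replicate 3. It counted 735 with all 27 arrays in the fit. With the replicate block it counted 72, and the block gave 3673 changed probe sets. Deviations of same-numbered arrays correlated at 0.264, -0.0400 and -0.0692, so the numbers were not taken as pairs. Of 472 called members of the gene lists, 298 held in every alternative that tested them, 62 were lost only without 1 array, and 0 were reversed. The medians of 10 of 47 lists changed sign under at least 1 alternative, and those of 4 did under quantile normalization, to -0.00932 for programmed cell death, -0.00398 for mitochondrial ribosomal proteins, -0.0552 for lipid metabolism and -0.0451 for antimicrobial peptides. The causes were not tested. Signals near the floor bound the folds of low genes.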

Other observations

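The following values were chosen after seeing the data and carry no test. Of 45 tested genes on chromosome 4, the small dot chromosome, 24 (53.3%) rose and 2 (4.44%) fell at 0 h against -18 h, beside 18.1% and 11% of 10006 genes over all arms. The rises included *gw*, *ci*, *eIF4G1*, *Rad23*, *Crk* and *MED26*, and the falls were *bt* and *Gat*. Neither *bt* nor *eIF4G1* was called under quantile normalization, without the filter, or without -18 h replicate 3 or any single 0 h array. The call of *bt* was also lost with the replicate block and without -18 h replicate 1. The median difference was 0.659 on the log2 scale, against -0.0276 over all arms. Set against single -18 h arrays, it was 0.472, 0.936 and 0.787 for replicates 1, 2 and 3. Against the -18 h mean it was 0.284 at -4 h and stood at 0.369 to 0.673 in the stages from 0 to 12 h. Without 0 h replicate 1 the rises numbered 13 (28.9%, beside 12.6% over all arms in that fit), and without -18 h replicate 2 they numbered 22 (48.9%, beside 16.7%). On the other arms 14.4% (X) to 20.5% (2L) of genes rose.

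Among probe sets that did not pass between 0 h and -18 h, 18 were highest at -4 h in the step contrast, with *yin*, *slf* and *Gld* as examples, and *Tina-1*, *Act79B* and *MFS3* were lowest there. The largest step contrast outside the named genes was that of *CG5391*, with means of 648 ± 139 at -18 h, 9062 ± 1254 at -4 h and 2171 ± 1065 at 0 h (SD, n = 3 each).

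Runs of adjacent genes that fell also included *CG17105*, *CG17107*, *CG7299*, *CG7296* and *CG7294* on 2L, by 1.95- to 26.6-fold, and *LManIII* to *LManVI* on 2L, by 2.05- to 35-fold. The longest run of rises was of 5 genes on 3R, *CG9837*, *aqz*, *CG8369*, *IscU* and *CG8379*, by 1.55- to 3.09-fold.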
